A study of Mus musculus with 20 samples.

Results

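The IGF axis transcripts described here are the ligand Igf1, the receptors Igf1r and Igf2r and the binding proteins Igfbp1 to Igfbp7, measured by RNA-seq in mouse kidney. The 10 genes were taken by symbol out of 47069 genes in the deposited count table, and all 10 passed the filter on low counts that left 17622 genes for testing. The set was chosen on the data themselves, because Igfbp2 had been seen to fall under both treatments. The values of Igfbp2 are therefore given as a description without a test, and counts of called members are taken over the other 9 genes.

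Whole kidneys of 20 male F1 mice of the strain cross 129SJ x C57Bl/6J were sequenced at 15 weeks of age. The WT group held 5 mice without treatment. In the other 3 groups both copies of Col4a3, the gene of the type IV collagen α3 chain, were disrupted (Col4a3-/-), which makes these mice a model of Alport syndrome. From 5 weeks of age, 6 Col4a3-/- mice (Veh) received PBS by weekly subcutaneous injection, 6 (anti-miR-21) received lademirsen, an oligonucleotide that inhibits miR-21, at 50 mg/kg by the same weekly route, and 3 (ACEi) drank ramipril, an inhibitor of the angiotensin-converting enzyme, at 11 mg/L. The study's methods give weekly PBS injections for ACEi mice as well. WT mice received no injection, so genotype and injection cannot be told apart in a comparison of Veh with WT. Mice are named by the letter and number of their label, such as A16.

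Insulin-like growth factors act through the receptor tyrosine kinase encoded by Igf1r, while the receptor encoded by Igf2r takes up IGF-II and carries it to lysosomes. Most IGF in tissue fluid is held by binding proteins, which prolong its life, keep it from the receptor or release it when proteases cut them. Igfbp1 to Igfbp6 encode the binding proteins with high affinity for IGF, and Igfbp7 encodes a related secreted protein that binds IGF weakly and is used clinically as a urinary marker of tubule stress. In the kidney the IGF system is known for its part in tubule growth, filtration and the response to injury.

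The drug's target and the starts of 4 members are shown first, the miRNA because it is what lademirsen blocks and the promoters because these genes lie in neighbouring pairs whose fitted differences between Veh and WT kidneys had opposite signs (Igfbp2 and Igfbp5) or the same sign (Igfbp1 and Igfbp3). The miRNA lies on chromosome 11 at chr11:86584120-86584141 on the minus strand (GRCm38.p6), and capitals mark its seed, the bases that pair with target transcripts. The sequences are those of RefSeq.
mmu-miR-21a-5p: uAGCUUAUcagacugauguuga
The DNA letters complementary to that seed, ATAAGCT, were searched on the sense strand in the annotated 3′ untranslated regions of the members (GENCODE M21, GRCm38). They were found in 0 of the 10 members, against 1237 of 15245 tested genes with such a region (8.11%). The longest annotated region spanned 312 bases in Igfbp2 and 7267 bases in Igf1r, the longest among the members. A missing match says only that these letters are not in the annotated regions.

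Each promoter below spans 250 bases before to 50 bases after the RefSeq start, written in the direction of the gene. 3 motifs were searched on both strands, and capitals mark them. GGGCGG is the GC box. The TATA box was searched as TATAAA and, as an alternative spelling, as TATATA. The third, CAAAACA, belongs to the insulin response element known from Igfbp1. RefSeq gives Igfbp2 another start downstream, which is not shown.
Igfbp2, chr1:72824230-72824529, plus strand: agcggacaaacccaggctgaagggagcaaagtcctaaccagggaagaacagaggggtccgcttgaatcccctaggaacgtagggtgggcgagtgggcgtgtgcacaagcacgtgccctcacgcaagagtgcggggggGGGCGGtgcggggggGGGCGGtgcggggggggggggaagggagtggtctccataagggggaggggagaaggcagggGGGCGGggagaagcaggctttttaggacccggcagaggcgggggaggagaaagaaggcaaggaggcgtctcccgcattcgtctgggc
Igfbp5, chr1:72874816-72875115, minus strand: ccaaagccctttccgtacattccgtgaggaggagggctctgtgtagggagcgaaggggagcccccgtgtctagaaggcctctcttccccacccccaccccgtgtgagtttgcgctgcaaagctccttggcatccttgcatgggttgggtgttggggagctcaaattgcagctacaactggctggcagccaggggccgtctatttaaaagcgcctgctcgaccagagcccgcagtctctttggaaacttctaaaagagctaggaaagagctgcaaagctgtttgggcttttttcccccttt
Igfbp1, chr11:7197537-7197836, plus strand: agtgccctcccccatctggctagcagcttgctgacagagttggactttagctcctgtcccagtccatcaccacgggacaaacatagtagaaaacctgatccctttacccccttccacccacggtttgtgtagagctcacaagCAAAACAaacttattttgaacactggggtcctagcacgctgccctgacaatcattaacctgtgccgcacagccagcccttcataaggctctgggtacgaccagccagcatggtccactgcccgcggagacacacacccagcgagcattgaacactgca
Igfbp3, chr11:7213874-7214173, minus strand: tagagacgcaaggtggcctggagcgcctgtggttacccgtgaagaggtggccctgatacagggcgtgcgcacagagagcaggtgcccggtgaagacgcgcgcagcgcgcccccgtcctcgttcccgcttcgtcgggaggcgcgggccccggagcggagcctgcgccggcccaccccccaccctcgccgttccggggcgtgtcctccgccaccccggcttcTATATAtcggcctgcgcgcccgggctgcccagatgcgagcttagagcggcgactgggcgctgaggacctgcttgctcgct

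The Igfbp2 promoter held 3 GC boxes, whose first bases lie at positions -113, -98 and -37 relative to the start, and no TATA box letters. Its neighbour Igfbp5, whose 3′ end faces that of Igfbp2 across 5457 bases, held none of the 3 motifs. Igfbp1 held CAAAACA at position -108, and Igfbp3, 3539 bases from Igfbp1 and in the facing orientation, held TATATA at position -30. Of 32851 mouse promoters of this length, 35.7% held GGGCGG, 17.1% held either TATA box spelling and 6.28% held CAAAACA, and these matches are descriptions of letters, not of bound factors.

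The estimated counts summed to between 28474301 and 29479629 per mouse. Col4a3 itself had 194 to 238 CPM (counts scaled to a common library size) in WT, 27.9 to 46.3 in Veh, 45.9 to 74.9 in anti-miR-21 and 42.8 to 56.2 in ACEi mice, so every library followed its genotype label. The kidney markers matched the tissue label in all groups, although the extraction text of the labels names adipose tissue: the 5 proximal tubule markers together had 1246 to 14710 CPM over all mice. CPM and fold changes here use edgeR's TMM scaling, which assumes that most genes do not change. The scaling matters in this series, because the TMM factors were 0.771 to 0.850 in WT and 1.12 to 1.26 in Veh. Between Veh and WT, the median over every gene tested was a log2 fold change of 0.07 with TMM and 0.65 when libraries were scaled by their totals alone. In that comparison TMM called 6869 genes higher and 5998 lower, and library totals called 11623 higher and 2684 lower. For anti-miR-21 against Veh these counts were 5073 higher and 5367 lower with TMM and 2459 and 9861 with library totals, and for ACEi against Veh 3704 and 3370 with TMM, 3063 and 4317 with upper-quartile scaling and 1907 and 7389 with library totals. The fold changes of the members in the 3 comparisons that include Veh are therefore set beside their values under library totals, and within-library ratios that need no scaling are given after them.

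The first comparison asks how the IGF axis of the untreated Col4a3-/- kidney differed from that of WT. Igf1 and Igfbp7 rose in Veh kidneys and Igf1r, Igf2r, Igfbp1, Igfbp3, Igfbp4 and Igfbp5 fell, so that 2 of the 9 tested members were called higher and 6 lower (edgeR's quasi-likelihood test, Benjamini-Hochberg adjusted over 17622 genes, threshold 0.05). Over all genes, 39.0% were called higher and 34.0% lower. Igfbp6 was not called. The groups did not overlap in 5 of the 9 members, against 54.9% of all genes, a share near the background. The median log2 fold change of the 9 members was -0.77, and that of all genes 0.07. In whole kidney, fewer cells of a type and less RNA per cell cannot be told apart. Scaled by library totals, 3 members were called higher (Igf1, Igfbp6 and Igfbp7) and 3 lower (Igf1r, Igf2r and Igfbp3). Of all 17622 genes, this scaling called 11623 higher and 2684 lower.

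The second comparison asks what anti-miR-21 changed in the Col4a3-/- kidney. Igf1 and Igfbp7 fell and Igf1r, Igf2r, Igfbp1, Igfbp3, Igfbp4 and Igfbp5 rose, again leaving Igfbp6 without a call. Thus 6 of 9 members were called higher and 2 lower against Veh, where 28.8% of all genes were higher and 30.5% lower. Groups did not overlap for 3 members (Igf1, Igf2r and Igfbp3), against 36.4% of all genes. With library totals, 2 members (Igf1r and Igfbp3) were called higher and 3 (Igf1, Igfbp6 and Igfbp7) lower. Of all 17622 genes, 2459 were then called higher and 9861 lower. All 3 comparisons with Veh use the same 6 Veh mice, so an opposite sign between them is no independent evidence.

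The third comparison asks the same of ramipril. Igf1r, Igf2r, Igfbp3 and Igfbp4 rose against Veh and Igfbp6 and Igfbp7 fell, so that 4 of 9 members were called higher and 2 lower, against 21.0% higher and 19.1% lower over all genes. Igf1 (log2 fold change -0.55 ± 0.23 SE, edgeR adjusted p = 0.063), Igfbp1 and Igfbp5 were not called, the last of these with a fitted value of 0.17 that became -0.10 with library totals. Groups did not overlap in 6 of 9 members, against 38.6% of all genes. With library totals 2 members (Igf2r and Igfbp3) were called higher and 3 (Igf1, Igfbp6 and Igfbp7) lower. Of all 17622 genes, 1907 were then called higher and 7389 lower.

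**Figure D1:**
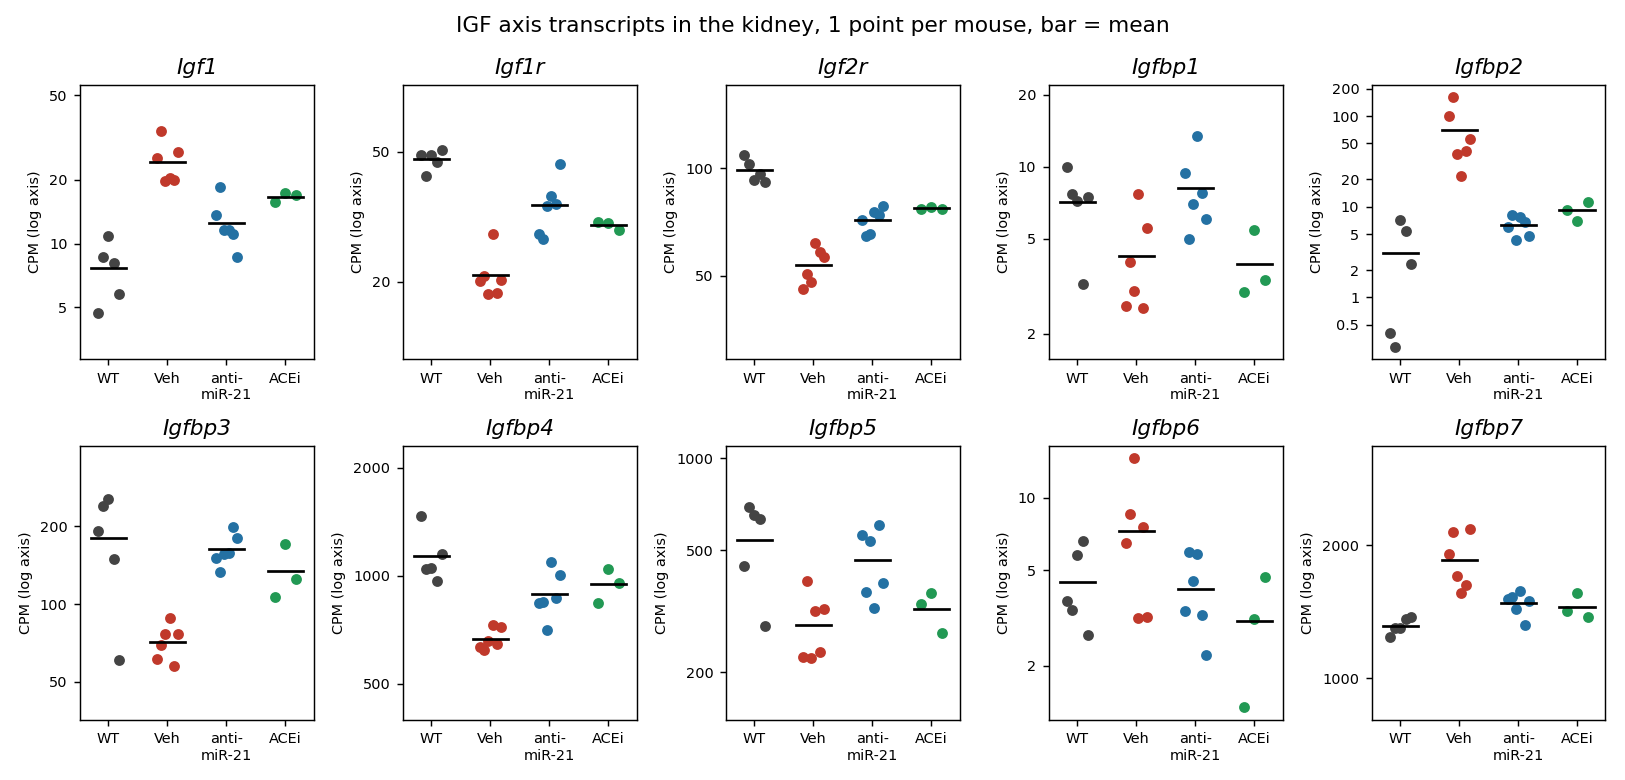
CPM after TMM scaling (log axis, range differing between panels) of each IGF axis gene in each of 20 mice, with 1 point per mouse and a bar at the group mean. The Veh points of Igfbp2 lie between 22.1 and 161 CPM, above all points of the other 3 groups, while the Igf1r and Igf2r points of Veh lie below those of WT.

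Igfbp2 (chr1:72824503-72852474, plus strand), a binding protein abundant in fetal tissues and in serum, was the member whose values chose the set. It had 0.287, 0.401, 2.35, 5.44 and 7.14 CPM in the WT mice, and the lowest, median and highest values were 22.1, 48.7 and 161 CPM in Veh. In anti-miR-21 mice these were 4.32, 6.34 and 8.11 CPM, and the ACEi mice had 7.01, 9.31 and 11.4 CPM. Every Veh mouse was thus above every mouse of the other groups, and the treated mice overlapped with the upper part of the WT range.

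The fitted difference in Igfbp2 was 22.3-fold between Veh and WT (log2 fold change 4.48 ± 0.60 SE). Against Veh, the fitted log2 fold change was -3.48 ± 0.51 SE under anti-miR-21 and -2.92 ± 0.66 SE under ACEi, which are 11.2-fold and 7.58-fold lower levels. Library totals gave 5.07, -3.83 and -3.20, so no scaling brought these differences near 0. The spread within groups was itself uneven: the highest and lowest mouse differed 24.9-fold in WT and 7.29-fold in Veh, but 1.88-fold in anti-miR-21 and 1.62-fold in ACEi mice. The summed adipocyte markers were 81.0 and 113 CPM in the Veh mice A1 and A4, which had the highest Igfbp2 levels, and 78.5 CPM in A9, whose Igfbp2 level was 38.3 CPM. In the other 3 Veh mice these markers summed to 7.78 CPM or less, and their Igfbp2 levels of 22.1, 41.1 and 56.3 CPM were still above every treated and WT mouse. The anti-miR-21 mouse A12 had 92.6 CPM of these markers and 7.68 CPM of Igfbp2, a level within the range of its group. The part of adipose tissue in the Igfbp2 level was not tested further.

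Igf1 (chr10:87858265-87937042, plus strand) encodes IGF-I, the growth factor made in liver under growth hormone and also locally by mesenchymal cells and macrophages. The WT mice had 4.72, 5.79, 8.14, 8.61 and 10.9 CPM. In Veh the lowest, median and highest were 19.8, 22.8 and 33.8 CPM, in anti-miR-21 8.68, 11.6 and 18.4 CPM, and the ACEi mice had 15.8, 16.9 and 17.3 CPM. All Veh mice were above all WT and all treated mice, and the ACEi mice were also all above WT, whereas the anti-miR-21 range reached into that of WT.

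Igf1 rose 3.19-fold in Veh against WT (log2 fold change 1.67 ± 0.21 SE, edgeR adjusted p = 3.2e-07). It fell 1.95-fold under anti-miR-21 against Veh (edgeR adjusted p = 0.00018). Library totals gave log2 fold changes of 2.25 and -1.29 for these comparisons, both still called, and of -0.82 for ACEi against Veh, which was then called as well (edgeR adjusted p = 0.012). Upper-quartile scaling also called Igf1 lower under ACEi (edgeR adjusted p = 0.04). Compared with WT, Igf1 remained 1.64-fold higher under anti-miR-21 (edgeR adjusted p = 0.0081) and 2.18-fold higher under ACEi (edgeR adjusted p = 0.00063). All 6 fibroblast markers were called higher in Veh than in WT, 5 were called lower under anti-miR-21 and 3 under ACEi. Their summed level was 149 to 369 CPM in WT, 2445 to 3012 in Veh, 628 to 1254 in anti-miR-21 and 1326 to 1472 in ACEi mice. The 5 macrophage markers had 125 to 138, 575 to 695, 248 to 356 and 319 to 380 CPM in the same order. No fibroblast or macrophage marker was at 0 in a group, and the part of these cells in the Igf1 level was not tested. Dcn, a fibroblast proteoglycan gene, had 181 mean CPM in Veh and 186 under anti-miR-21.

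The other ligand, Igf2, which is known mainly from fetal growth, was low in every group. It had 1.30 to 3.25 CPM in WT, 1.04 to 5.00 in Veh, 1.48 to 2.06 in anti-miR-21 and 0.361 to 1.503 in ACEi mice. These ranges overlapped, and the difference between Veh and WT was not called (log2 fold change 0.19 ± 0.41 SE, edgeR adjusted p = 0.68).

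Igf1r (chr7:67952827-68233668, plus strand), the signalling receptor, had 42.0, 46.6, 48.7, 48.8 and 50.7 CPM in WT. Its lowest, median and highest values were 18.3, 20.1 and 28.02 CPM in Veh and 27.0, 34.3 and 45.8 CPM in anti-miR-21, and the ACEi mice had 28.7, 30.3 and 30.4 CPM. WT and Veh did not overlap, and the ACEi mice lay just above the highest Veh mouse.

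Igf1r fell 2.26-fold in Veh (log2 fold change -1.18 ± 0.12 SE, edgeR adjusted p = 1.9e-08) and was 1.64-fold higher under anti-miR-21 than in Veh (edgeR adjusted p = 2.4e-05). Under ACEi it was 1.42-fold higher than in Veh (edgeR adjusted p = 0.006). The scaling decided the size of these changes: library totals gave -0.60 and 0.36 on the log2 scale for the first pair, both still called, and 0.24 for ACEi, which was no longer called (edgeR adjusted p = 0.056). With TMM both treated groups stayed below WT, by 1.38-fold under anti-miR-21 (edgeR adjusted p = 0.0035) and 1.59-fold under ACEi (edgeR adjusted p = 0.0009). The deposited FPKM values (fragments scaled by length and mapped reads) differed less. Their Igf1r means were 12.03 in WT, 9.82 in Veh, 11.88 in anti-miR-21 and 10.95 in ACEi mice. On that scale Veh lay below WT without overlap, while both treated groups overlapped with WT.

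Igf2r (chr17:12682406-12769664, minus strand), the clearance receptor, ran in parallel. It had 91.8, 92.6, 96.4, 103 and 109 CPM in WT, a lowest, median and highest of 45.8, 53.6 and 61.8 CPM in Veh, and 64.5, 72.7 and 78.2 CPM in anti-miR-21. The ACEi mice had 76.8, 77.0 and 77.7 CPM. On the CPM scale the Veh group was below all others, and both treated groups were below WT, without overlap in each case. In FPKM, Veh (6.47 to 8.41) overlapped with anti-miR-21 (7.53 to 8.46) but not with WT (8.45 to 9.80). The ACEi mice had 8.60 to 9.13 FPKM, and both treated groups overlapped with WT on that scale. The fall in Veh was 1.84-fold (log2 fold change -0.88 ± 0.08 SE, edgeR adjusted p = 2.1e-09), with rises of 1.34-fold under anti-miR-21 (edgeR adjusted p = 6e-05) and 1.44-fold under ACEi (edgeR adjusted p = 0.00011). With library totals the fall shrank to -0.30 but was called, the ACEi rise was 0.26 and called, and the anti-miR-21 rise was 0.07 and was not called (edgeR adjusted p = 0.30). Proximal tubule markers moved with both receptors, with summed levels of 11412 to 14710 CPM in WT, 1246 to 3537 in Veh, 6206 to 10377 in anti-miR-21 and 6524 to 8552 in ACEi mice. All 5 of these markers were called lower in Veh and higher under each treatment, and their part in the receptor levels was not tested.

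**Figure D2:**
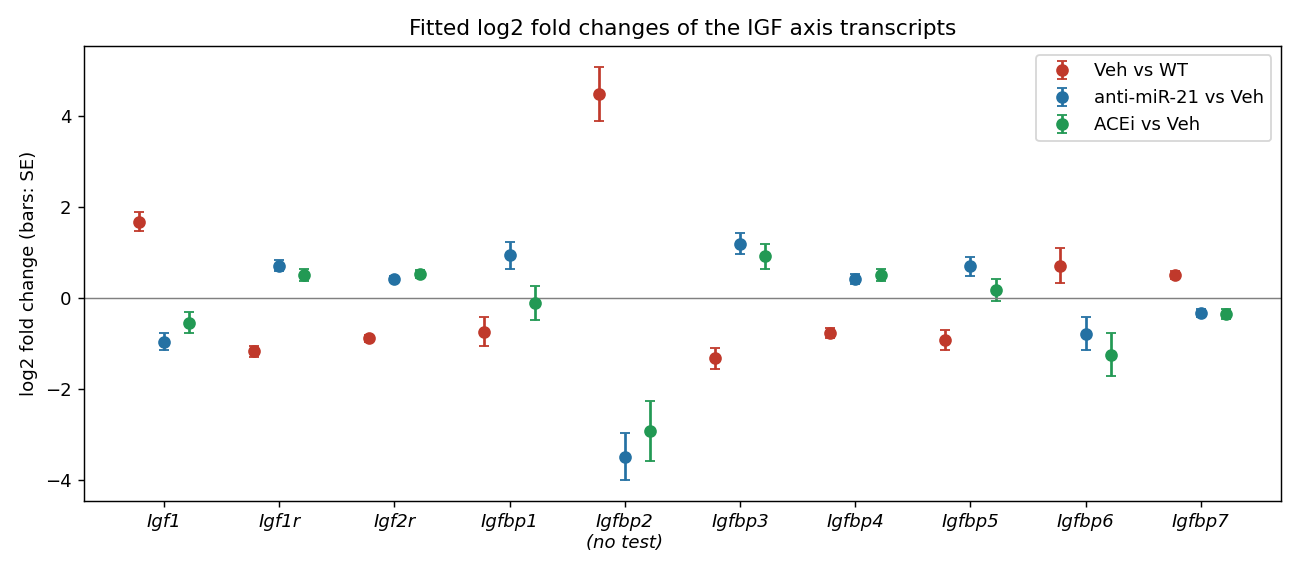
Fitted log2 fold change (y axis) of each IGF axis gene in 3 comparisons, with bars for the standard error and no test for Igfbp2. Igf1, Igfbp2, Igfbp6 and Igfbp7 lie above 0 in Veh against WT and below 0 under both treatments, and the treatment values of the receptors and of Igfbp3, Igfbp4 and Igfbp5 lie on the other side, that of Igfbp5 under ACEi (0.17) turning to -0.10 with library totals.

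Igfbp3 (chr11:7206086-7213923, minus strand) encodes the main carrier of IGF in serum and is made in the kidney largely by endothelium and interstitial cells. The WT mice had 60.7, 150, 193, 240 and 255 CPM, and A18 was far below the others. The lowest, median and highest values were 57.5, 72.8 and 88.2 CPM in Veh and 133, 157 and 198 CPM in anti-miR-21, and the ACEi mice had 107, 126 and 171 CPM. Every treated mouse was above every Veh mouse, while the WT mouse A18 lay within the Veh range.

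Igfbp3 fell 2.51-fold in Veh (log2 fold change -1.33 ± 0.24 SE, edgeR adjusted p = 4.5e-05). It was 2.28-fold higher under anti-miR-21 (edgeR adjusted p = 0.00018) and 1.88-fold higher under ACEi (edgeR adjusted p = 0.011) than in Veh. Library totals gave -0.75, 0.85 and 0.64 on the log2 scale, all still called. The ACEi call was lost without the ACEi mouse A13 (log2 fold change 0.71, edgeR adjusted p = 0.094). Neither treated group was called different from WT. The 5 endothelial markers summed to 99.3 to 265 CPM in WT and 226 to 284 CPM in Veh, where 2 of them were called higher and 1 lower. The WT mouse A18 had the lowest of these sums, against 183 to 265 CPM in the other WT mice, and also the lowest fibroblast sum of WT, 149 CPM. Without A18 the log2 fold changes between Veh and WT were -1.55 for Igfbp3 and -1.08 for Igfbp5, both still called.

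Igfbp4 (chr11:99041244-99054392, plus strand), an inhibitory binding protein that is cut by the protease PAPP-A, was among the most abundant members. It had 969 to 1473 CPM in WT, 621 to 728 in Veh, 705 to 1090 in anti-miR-21 and 842 to 1043 in ACEi mice. WT and Veh did not overlap. The fall in Veh was 1.71-fold (edgeR adjusted p = 3.6e-06), and the rises were 1.34-fold under anti-miR-21 (edgeR adjusted p = 0.0024) and 1.42-fold under ACEi (edgeR adjusted p = 0.0043). None of the 3 calls held with library totals, where the log2 fold changes were -0.18, 0.07 and 0.23.

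Igfbp5 (chr1:72857932-72874884, minus strand), a binding protein that attaches to extracellular matrix, had 284, 445, 632, 652 and 691 CPM in WT, with A18 again the lowest. The lowest, median and highest values were 222, 275 and 397 CPM in Veh and 324, 464 and 607 CPM in anti-miR-21, and the ACEi mice had 269, 335 and 363 CPM. The ACEi mice lay inside the Veh range, and the other groups overlapped with Veh at its upper end. Igfbp5 fell 1.89-fold in Veh (edgeR adjusted p = 0.00076) and was 1.62-fold higher under anti-miR-21 (edgeR adjusted p = 0.0069), but neither call held with library totals (log2 fold changes -0.35 and 0.37). Under ACEi it stayed 1.68-fold below WT (edgeR adjusted p = 0.027). Igfbp5 and its neighbour Igfbp2 thus had fitted log2 fold changes of -0.92 and 4.48 in the same Veh kidneys.

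Igfbp1 (chr11:7197782-7202546, plus strand), whose transcript in liver is switched off by insulin, was low in the kidney, at 3.23 to 9.93 CPM in WT, 2.56 to 7.71 in Veh, 4.99 to 13.5 in anti-miR-21 and 2.98 to 5.44 in ACEi mice. All groups overlapped with Veh. The fall in Veh was 1.67-fold (log2 fold change -0.74 ± 0.31 SE, edgeR adjusted p = 0.039) and the rise under anti-miR-21 1.91-fold (edgeR adjusted p = 0.011). The first call was lost in turn without each of the WT mice A3, A6, A14 and A18 and the Veh mice A1, A4, A9 and A19. It was also lost with upper-quartile scaling (edgeR adjusted p = 0.068). Both calls were lost with library totals (log2 fold changes -0.17 and 0.61). Under ACEi the fitted value against Veh was -0.11, and -0.37 with library totals. Within the smaller flow cell, with 2 mice a group, Igfbp1 was 0.41 higher in Veh than in WT on the log2 scale.

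Igfbp6 (chr15:102144362-102149511, plus strand), which prefers IGF-II, had 2.68 to 6.62 CPM in WT, 3.18 to 14.6 in Veh, 2.21 to 5.96 in anti-miR-21, and 1.34, 3.15 and 4.70 CPM in the ACEi mice. Veh overlapped with each other group. The difference between Veh and WT (log2 fold change 0.71 ± 0.38 SE, edgeR adjusted p = 0.10) and that between anti-miR-21 and Veh (-0.79 ± 0.36 SE, edgeR adjusted p = 0.067) were not called. They passed the threshold with library totals, at 1.30 and -1.14, and without either of the Veh mice A16 and A20, whose levels were the lowest of that group. The difference between anti-miR-21 and Veh also passed it with upper-quartile scaling (edgeR adjusted p = 0.047). Igfbp6 was 2.38-fold lower under ACEi than in Veh (edgeR adjusted p = 0.04), a call that was lost without any of the Veh mice A1, A4, A9 and A19 or the ACEi mice A11 and A13, and that was kept with library totals (log2 fold change -1.54).

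Igfbp7 (chr5:77349240-77408041, minus strand) was the most abundant member. It had 1241, 1296, 1302, 1358 and 1375 CPM in WT, a lowest, median and highest of 1561, 1810 and 2182 CPM in Veh, and 1318, 1505 and 1577 CPM in anti-miR-21. The ACEi mice had 1378, 1422 and 1557 CPM. All Veh mice were above all WT and ACEi mice, and 1 Veh mouse, A16, lay inside the anti-miR-21 range.

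Igfbp7 rose 1.41-fold in Veh (log2 fold change 0.50 ± 0.09 SE, edgeR adjusted p = 5.2e-05). It was 1.26-fold lower under anti-miR-21 (edgeR adjusted p = 0.0026) and 1.28-fold lower under ACEi (edgeR adjusted p = 0.012). These changes were larger with library totals, at 1.08, -0.67 and -0.63 on the log2 scale, all called. The ACEi call was lost without A11 or A23, with edgeR adjusted p = 0.0525 and 0.0645. Of the 1209 annotated exonic bases of Igfbp7, 85 overlap exons of Polr2b on the opposite strand, and reads there cannot be told apart without strand.

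**Figure D3:**
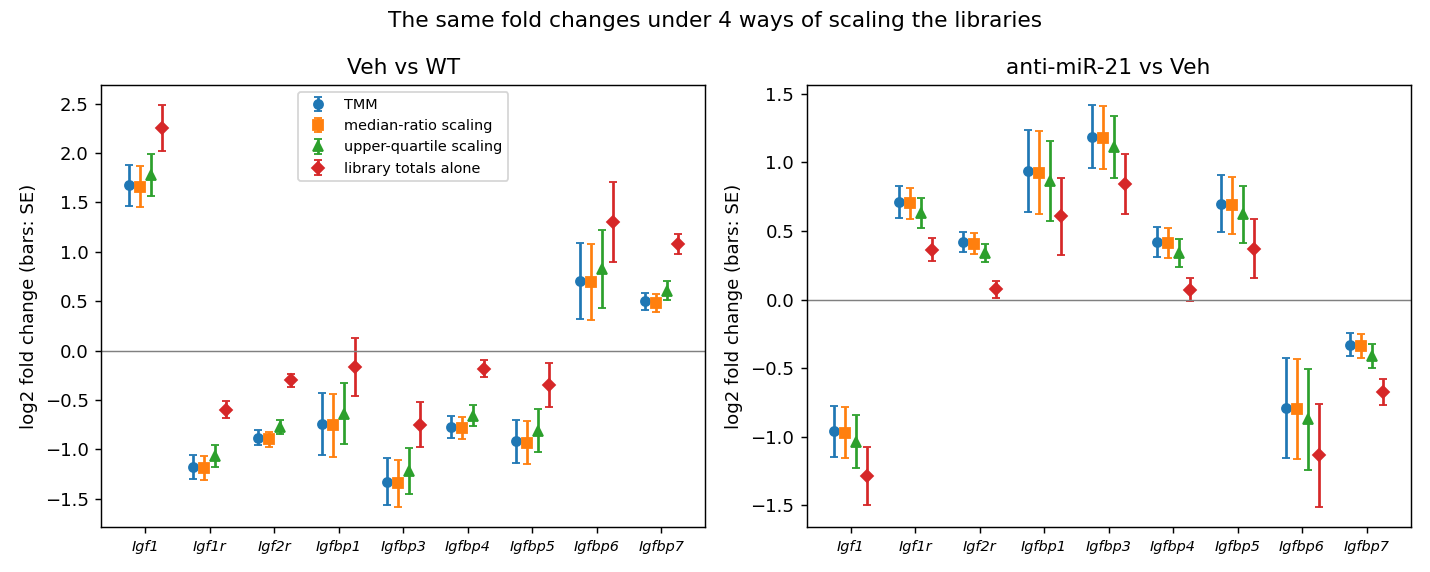
Log2 fold change (y axis, bars for the standard error) of the 9 tested members in Veh against WT (left) and anti-miR-21 against Veh (right), each computed with 4 ways of scaling the libraries. Under library totals (diamonds) Igf1, Igf1r, Igfbp3, Igfbp6 and Igfbp7 lie away from 0 and are called in both panels, and Igfbp4 moves close to 0.

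A comparison of the treatments with each other asks whether they left different IGF axis levels. None of the 9 members was called between anti-miR-21 and ACEi by edgeR, against 0.584% of all genes. At an unadjusted p under 0.05 there was 1, Igfbp1 (2.07-fold higher under anti-miR-21, log2 fold change 1.05 ± 0.39 SE, edgeR adjusted p = 0.22), and DESeq2 also called 0. Igfbp2 differed by a fitted log2 value of -0.56 ± 0.60 SE. The standard errors of the tested members in this comparison ran from 0.09 in Igf2r to 0.46 in Igfbp6, so the size of difference that could be detected varied between members.

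Against WT, 4 of 9 members were called under anti-miR-21 (Igf1 higher, Igf1r, Igf2r and Igfbp4 lower), where 43.7% of all genes were called. Under ACEi 4 of 9 were called (Igf1 higher, Igf1r, Igf2r and Igfbp5 lower), against 47.7% of all genes. Igf1, Igf1r and Igf2r were thus called against WT under each treatment with TMM. Igfbp7 and Igfbp3 were called under neither, with log2 fold changes of 0.17 ± 0.09 SE and -0.14 ± 0.24 SE under anti-miR-21 and of 0.14 ± 0.11 SE and -0.42 ± 0.29 SE under ACEi. Igfbp4 fell short of WT by 1.28-fold under anti-miR-21 (edgeR adjusted p = 0.016), a call lost without the WT mouse A3 (edgeR adjusted p = 0.0789). The Igfbp5 call under ACEi was lost without A6, A14, A17, A11 or A23, with edgeR adjusted p-values of 0.0532 to 0.125, and Igfbp3 was called lower than WT under ACEi without the WT mouse A18 (log2 fold change -0.64). With library totals the Igf2r call under ACEi and the Igfbp4 and Igfbp5 calls were lost, and Igfbp7 was called higher than WT under anti-miR-21 (log2 fold change 0.41) and ACEi (0.45).

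Levels of different genes can be compared only per length, for which the FPKM values (fragments scaled by transcript length and by mapped reads) deposited by the authors were used. In WT kidneys Igfbp7 had 969 ± 69.3 FPKM (SD, n = 5), followed by Igfbp4 with 450.5 ± 60.8, Igfbp5 with 126 ± 41.8 and Igfbp3 with 60.5 ± 26.4. The receptors Igf1r (12.03 ± 0.45) and Igf2r (9.11 ± 0.62) came next, and Igfbp1, Igfbp6, Igfbp2 and Igf1 had means of 1.01 to 3.82 FPKM. In WT the neighbours in this order that overlapped were Igfbp5 with Igfbp3 and, in turn, the last 4 genes. The authors marked the FPKM entries of Igf2r and Igfbp7 as confounded with other genes.

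The order changed at its lower end in Veh kidneys. Igfbp2, next to last in WT at 1.95 ± 1.92 FPKM (SD, n = 5), ranked 4 of 10 in Veh at 66.0 ± 49.0 FPKM (SD, n = 6), and its range overlapped with those of Igfbp5 and Igfbp3. Under anti-miR-21 it was at 4.60 ± 1.23 FPKM (SD, n = 6) and under ACEi at 7.16 ± 1.85 FPKM (SD, n = 3), at ranks 8 and 7. Igfbp7, Igfbp4 and Igfbp5 were the 3 highest in every group. Igf1 was last in WT and under anti-miR-21, and at rank 9 in Veh and under ACEi.

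Shares within a library do not depend on the scaling between libraries. The summed FPKM of Igfbp1 to Igfbp6 was 645 ± 64.6 in WT, 614 ± 58.9 in Veh, 625.4 ± 32.5 in anti-miR-21 and 629.6 ± 47.7 in ACEi mice (SD). Igfbp2 made up 0.0271% to 0.663% of that sum in WT and 3.32% to 21.1% in Veh, and 0.512% to 1.06% and 0.760% to 1.42% in anti-miR-21 and ACEi mice. Igfbp3 made up 9.21% to 11.8% under anti-miR-21 and 7.90% to 10.1% under ACEi, above the 4.95% to 7.20% of Veh without overlap, and 3.70% to 12.8% in WT. The share of Igfbp4 was 65.6 ± 7.01% in Veh and 70.1 ± 9.26% in WT, a difference smaller than either SD. Because the sum includes Igfbp2, its larger share in Veh lowers the Veh shares of Igfbp3 and Igfbp4 by construction. On their own, the shares therefore do not show whether Igfbp3 or Igfbp4 itself changed. The sum, unlike the shares, depends on scaling by mapped reads. On that scale its group means differed by less than the SD within WT. With TMM, Igfbp4, the largest part of the sum, had a mean of 1138 CPM in WT and 667 in Veh. Igfbp2 took a larger share in every Veh mouse than in any other mouse.

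The ratio of Igfbp7 to Igfbp4 FPKM was 1.56 to 2.59 in WT, 3.97 to 6.40 in Veh, 2.68 to 3.76 in anti-miR-21 and 2.67 to 3.13 in ACEi mice. Veh overlapped with no other group, and both treated groups lay above WT. This ratio shows that the 2 genes changed unequally, not which of them changed.

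**Figure D4:**
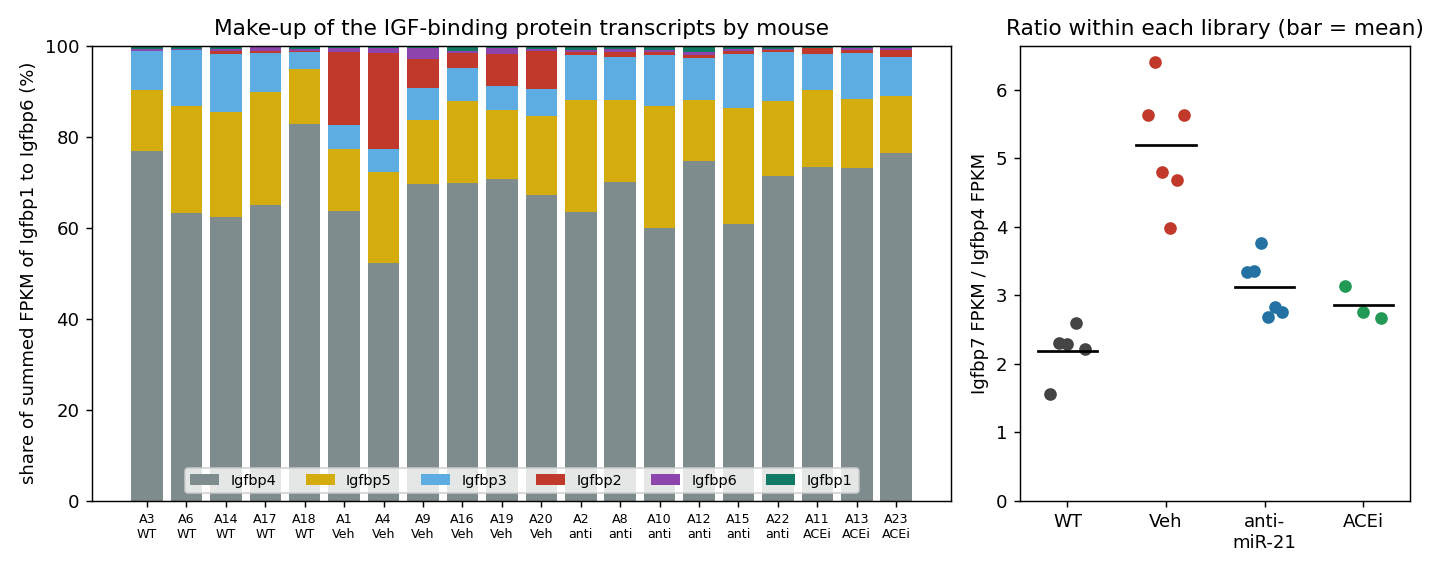
Left, share of each gene in the summed FPKM of Igfbp1 to Igfbp6 (y axis, %) in each of 20 mice. Right, ratio of Igfbp7 to Igfbp4 FPKM per mouse, with a bar at the group mean. Igfbp2 takes 3.32% to 21.1% of the sum in Veh mice and at most 1.42% elsewhere, and the Veh ratios of 3.97 to 6.40 lie above all others.

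The Veh mouse A16 was the lowest of the 6 Veh mice in Igfbp2, Igfbp6 and Igfbp7 and the highest in Igf1r, Igf2r, Igfbp1, Igfbp3 and Igfbp4, and was thus at an extreme of the group in 8 of 10 members. No other Veh mouse was at an extreme in more than 4. The proximal tubule markers of A16 summed to 3537 CPM, the highest among Veh mice (1246 to 2571 CPM in the others), and its adipocyte markers to 7.78 CPM. Neither the count of extremes nor the part of these markers was tested.

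The genes most like Igfbp2 across the 20 mice were sought by Pearson's r on log2 CPM among tested genes whose mean log2 CPM was 1 or more. These were Scx, a tendon and fibroblast transcription factor (r = 0.97), the epithelial keratin Krt19 (r = 0.95), the growth factor Pdgfa (r = 0.95), the interleukin-18 receptor gene Il18r1 (r = 0.95) and Col4a6, a type IV collagen chain gene (r = 0.95). These r values describe 20 mice that fall into separate groups, so they carry no p. Krt19 had mean levels of 6.34 CPM in WT, 102 in Veh, 14.9 in anti-miR-21 and 22.4 in ACEi mice. Scx had 0.490 to 4.37 CPM in WT and 7.90 to 18.96 in Veh, with 2.75 to 5.23 and 3.54 to 4.50 CPM under the treatments. The WT mice A3 and A6, with the lowest Igfbp2 levels of all mice, were also the lowest in Scx and Krt19. Among the members, r with Igfbp2 was highest for Igf1 (0.89) and Igfbp7 (0.84) and lowest for Igf2r (-0.89), and for Igfbp5, its neighbour on chromosome 1, r was -0.57.

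**Figure D5:**
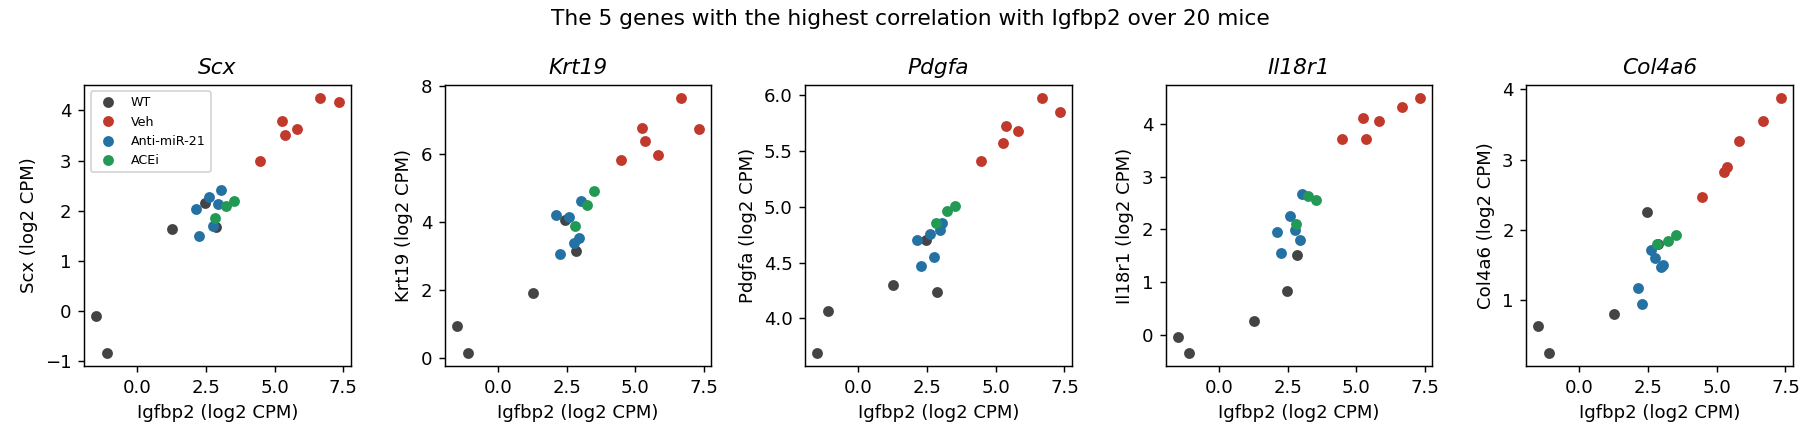
Log2 CPM of the 5 genes with the highest Pearson's r with Igfbp2 (y axes) against log2 CPM of Igfbp2 (x axes), with 1 point per mouse coloured by group. The Veh mice form the upper right of each panel and the WT mice A3 and A6 lie at the lower left. Along the x axes the treated mice lie between these and overlap with the WT mice A14 and A17. For Col4a6, A17 lies above all treated mice.

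Genes of the pathway around the members were read from lists set up with earlier results of these data known. The counts of each list stand against the calls over all genes. In Veh against WT these were 39.0% higher and 34.0% lower with TMM, and 11623 and 2684 of 17622 genes with library totals. With TMM, 28.8% were higher and 30.5% lower under anti-miR-21 against Veh, and 21.0% and 19.1% under ACEi. Of 8 genes of the growth hormone axis, 3 rose and 2 fell in Veh against WT, and with library totals 6 rose and 1 fell. Ghr, the growth hormone receptor, fell from 724 to 135 mean CPM (log2 fold change -2.42 ± 0.19 SE, edgeR adjusted p = 4.4e-10), and rose under anti-miR-21 by 1.79 and under ACEi by 1.43 on the log2 scale. Socs3, an inhibitor of cytokine receptors, rose by 4.96 ± 0.25 SE and fell under each treatment, by 1.41 and 1.20. Against Veh, 1 gene of this list rose and 3 fell under anti-miR-21, and 1 rose and 1 fell under ACEi, counts that were 1 and 6, and 1 and 4, with library totals. Socs1 rose by 1.98, and Stat5b, a transcription factor activated by the growth hormone receptor, fell by 0.27 and was called higher, at 0.31, with library totals.

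Of 9 tested partners and proteases of the binding proteins, 6 rose and 3 fell in Veh, and with library totals 7 rose and 1 fell. The serine protease gene Htra3 rose from 2.96 to 34.8 mean CPM (log2 fold change 3.55 ± 0.24 SE, edgeR adjusted p = 8e-11) and fell by 2.07 under anti-miR-21 and by 1.68 under ACEi. Stc2, whose product stanniocalcin-2 inhibits PAPP-A, rose by 2.81 ± 0.18 SE and was not called under either treatment, with log2 fold changes of -0.22 ± 0.15 SE and -0.14 ± 0.18 SE, although library totals called it lower under anti-miR-21, at -0.56. Igfals, the subunit that holds IGF and Igfbp3 protein in the serum complex, fell by 1.17. Under anti-miR-21 2 of these genes rose and 2 fell, and under ACEi 2 rose and 1 fell, against 1 and 4, and 1 and 1, with library totals. The protease gene Htra1 fell by 0.59 and was not called with library totals (edgeR adjusted p = 0.96).

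Among 8 genes of the insulin receptor family and its adaptors, 3 rose and 3 fell in Veh, and with library totals 5 rose and 1 fell. Insrr, which encodes an alkali-sensing receptor of this family in the kidney, fell by 2.21 ± 0.22 SE, and Irs1, an adaptor of both receptors, by 0.80 ± 0.32 SE, from 1.32 to 0.758 mean CPM, a call that was lost with library totals (log2 fold change -0.21). The adaptor genes Shc1 and Grb10 rose by 0.69 and 0.65. Under anti-miR-21 3 of these genes rose and 3 fell against Veh with TMM, and 2 and 4 with library totals. Under ACEi 2 rose and 2 fell with TMM, and 1 and 4 with library totals.

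Of 17 genes of PI3K, Akt and mTOR signalling, the growth pathway below the receptor, 4 rose and 9 fell in Veh. With library totals 14 rose and 1 fell, so no direction can be given for this list. Under anti-miR-21 6 rose and 4 fell against Veh with TMM, and 1 and 13 with library totals. Under ACEi these counts were 6 and 3 with TMM and 1 and 10 with library totals. Mtor, the kinase gene, fell from 232 to 59.6 mean CPM (log2 fold change -1.96 ± 0.13 SE, edgeR adjusted p = 1e-10) and was called lower with library totals as well. Pik3cb, a PI3K subunit gene, fell by 0.73, a call lost with library totals. Eif4ebp1, which encodes a translation inhibitor, rose by 1.55.

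Of 8 forkhead factors and their targets, 3 rose and 4 fell in Veh, and with library totals 6 rose and 2 fell. The gluconeogenic genes Pck1 and G6pc, which insulin represses through these factors in liver, fell by 2.89 ± 0.24 SE and 2.51 ± 0.33 SE and rose by 2.11 and 2.10 under anti-miR-21. Both are also proximal tubule transcripts, and the tubule markers listed with the receptors moved with them. Under each treatment 3 genes of this list rose against Veh, with 3 lower under anti-miR-21 and 1 under ACEi. With library totals 2 rose under each, with 5 lower under anti-miR-21 and 4 under ACEi. Trib3 and Sesn3, known from stress responses, rose by 2.36 and 1.10. Over all 51 tested genes of these lists and Igf2, 19 rose and 21 fell in Veh, with a median log2 fold change of -0.06 against 0.07 for all genes. Over all genes TMM called 39.0% higher and 34.0% lower. With library totals 38 of the 51 rose and 6 fell, against 11623 higher and 2684 lower of 17622 genes. Under anti-miR-21 15 rose and 15 fell with TMM (28.8% and 30.5% of all genes), and 7 and 32 with library totals (2459 and 9861 of 17622 genes). Under ACEi 14 rose and 8 fell with TMM (21.0% and 19.1% of all genes), and 6 and 24 with library totals (1907 and 7389 of 17622 genes). The balance of higher and lower calls in these lists thus depended on the scaling, while the Veh calls of Ghr, Socs3, Htra3, Insrr, Pck1 and G6pc were kept with library totals, at log2 fold changes of -1.85, 5.55, 4.15, -1.63, -2.31 and -1.95.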

How the data were processed

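Kidney RNA-seq libraries of 20 mice were analysed, sequenced on 2 flow cells. The authors aligned the reads to mouse genome GRCm38 with the OmicSoft aligner and deposited estimated counts per gene, which are not all whole numbers, and FPKM values per gene entry, in which they scaled counts by length and depth. The FPKM table holds 3 further library columns that were not used here. Groups were taken from the sample labels, and nothing in the labels pairs mice between groups or describes technical repeats.

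Estimated counts were rounded. Genes with low counts were removed (filterByExpr, at least 10 counts in enough mice and 15 in all), libraries were scaled by TMM, and edgeR's quasi-likelihood test was fitted with 1 coefficient per group over all 20 mice. P-values were adjusted over 17622 genes by the Benjamini-Hochberg method with a threshold of 0.05, and standard errors are those of the fit. Library totals of 28474301 to 29479629 (median 29026771) give few counts for the low genes Igfbp1, Igfbp6 and Igf2, and the largest standard errors were those of Igfbp2. Levels were compared between genes by FPKM only. The fit was also run on simulated counts in which only a small set of genes was changed in Veh, in both directions. That run could not check the scaling, because far more genes differed between Veh and WT in the real data.

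The members and gene lists were chosen with earlier results of these data known. Named genes were the 10 members, Igf2, Col4a3, the 5 genes with the highest r with Igfbp2 and, per pathway list, the strongest 2 called genes in each direction between Veh and WT, of which 1 is not reported here. Alternatives were DESeq2, other scalings, other filters, limma on log2(FPKM + 1) and log2(FPKM + 0.1), fits that leave out 1 mouse or all groups outside the comparison, a term for flow cell, and a fit within flow cell A. Differences within each flow cell were added after the data were seen. Versions were R 4.3.3, edgeR 4.0.16, limma 3.58.1, DESeq2 1.42.0, Python 3.11.15, numpy 2.4.6, pandas 2.3.3, scipy 1.17.1 and matplotlib 3.10.9.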

Additional observations from a re-analysis of the deposited data

Results flagged for a closer look

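Of 30 combinations of a member and a group of 4 to 10 mice, 1 held a mouse that stood apart by Dixon's criterion. Igf1r was at 28.02 CPM in the Veh mouse A16, against 20.87 CPM in the nearest other Veh mouse, a gap of 0.734 of the group's range where the critical value was 0.625. A criterion at the 0.05 level flags some of 30 groups by chance. The same mouse was at an extreme of the Veh group in 8 of the 10 members.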

How the results depend on the processing

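Of the 9 tested members, 8 were called between Veh and WT, and 5 with limma on log2(FPKM + 1). For anti-miR-21 against Veh 8 were called, and 5 with library totals, 5 with limma on log2(FPKM + 1) and 5 on log2(FPKM + 0.1). For ACEi against WT 4 were called, and 2 with either FPKM setting. The other settings moved no count of members by more than 1.5 times, and the cause of these differences was not tested. The share of all genes called with the FPKM settings is not given here. The lower counts are therefore not read as particular to the members. No paired analysis was possible because the mouse names of the labels differ between all groups.

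With 1 mouse left out at a time, the number of members called was 7 to 9 between Veh and WT, 8 to 9 for anti-miR-21 against Veh, 4 to 6 for ACEi against Veh, 0 between the treatments, 3 to 4 for anti-miR-21 against WT and 3 to 5 for ACEi against WT. The count for ACEi against Veh was lowest, at 4, without A11 or A13. The share of all genes called in these fits is not given here either.

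In the refitted models, the sign of a member turned only for differences that were not called. With library totals, log2(FPKM + 1) and log2(FPKM + 0.1), in this order, Igfbp3 in anti-miR-21 against WT was 0.0958, 0.2455 and 0.2531, Igfbp4 in ACEi against WT 0.0511, 0.0611 and 0.0612, Igfbp5 in ACEi against Veh -0.0971, -0.0895 and -0.0902, Igfbp5 in anti-miR-21 against WT 0.0236, 0.0741 and 0.075, Igfbp6 in anti-miR-21 against WT 0.1651, 0.1263 and 0.1606, and Igfbp7 in anti-miR-21 against ACEi -0.0414, -0.0469 and -0.047. Igfbp3 in ACEi against WT was 0.026 and 0.0301 with the 2 FPKM settings. With 1 mouse left out at a time, the log2 fold change of Igfbp1 ranged from -0.4079 to 0.1723 in ACEi against Veh and from -0.0105 to 0.3513 in anti-miR-21 against WT, that of Igfbp3 from -0.3625 to 0.0177 and of Igfbp6 from -0.2193 to 0.1062 in anti-miR-21 against WT, and that of Igfbp7 from -0.0101 to 0.0791 in anti-miR-21 against ACEi.

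Within flow cell A all 10 members kept their sign between Veh and WT (4 against 3 mice), and within flow cell B 8 of 10 did (2 against 2), the exceptions being Igfbp1 and Igfbp6. For anti-miR-21 against Veh 10 and 8 members kept it in flow cells A and B, with Igfbp4 and Igfbp6 as exceptions in B (1 against 2 mice), and for ACEi against Veh 9 and 10, with Igfbp1 as the exception in A (1 against 4). The ACEi group held 3 mice, and Igfbp1 and Igfbp6 had low counts. The part of either in the precision was not tested. The Igfbp4 and Igfbp5 calls depended on the scaling: no call of either against Veh or of Veh against WT held with library totals. These TMM calls were kept with median-ratio and upper-quartile scaling. With library totals the called differences kept their sign.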
